A study of Mus musculus with 24 samples.

Results

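The genes described here are 10 heat shock and chaperone genes of the cytosol and mitochondria, out of 55401 genes counted: Hspa1a, Hspa1b, Hspa8, Hsph1, Dnajb1, Bag3, Hsp90aa1, Hsp90ab1, Hspd1 and Hspe1. They were picked by name. The list was chosen from an earlier reading of these same libraries in which Hspa1b stood out in CD4 heterozygotes against wild type, so the values of all 10 genes in every comparison that uses the CD4 heterozygotes are given as a description with no test. Comparisons of CD4 knockouts or of CD8 wild type with CD4 wild type share the wild-type libraries of that choice, so Hspa1b has no test there either, and the other genes there are not fully independent of the choice. Of the 10 genes, 9 had enough counts to be tested, and Hspa1a did not.

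RNA was measured by poly(A) sequencing in T cells of the CD4 and CD8 lineages, sorted from spleens of C57BL/6 mice aged 12 weeks. All cells were activated in culture for 2 days with antibodies against CD3 and CD28. The study compares 3 genotypes of Pou2af1, a coactivator of octamer factors that is studied mostly in B cells. The wild-type groups were labelled CD4.Cre- with both Pou2af1 alleles floxed (fl/fl), although their titles read +/+. Heterozygotes were CD4.Cre+ with the fl/+ genotype, and knockouts were CD4.Cre+ with fl/fl. The CD4-Cre transgene acts in T cells, and it was present in heterozygotes and knockouts but not in the controls, so an effect of Cre and an effect of the Pou2af1 alleles cannot be told apart in a comparison with wild type. There were 4 libraries in each of the 6 groups, 24 in all, and the labels do not say that they came from separate animals, so p-values measure the spread between these libraries, part of which may be technical.

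Heat shock proteins bind unfolded proteins and help them fold, and most are made both at rest and, in larger amounts, after stress. HSP70 proteins (Hspa1a, Hspa1b, Hspa8) hold unfolded stretches of a client, helped by HSP40 proteins such as Dnajb1, which bring clients, and by exchange factors such as Hsph1 and Bag3, which release them. HSP90 proteins (Hsp90aa1, Hsp90ab1) finish the folding of kinases and receptors, while Hspd1 (HSP60) and Hspe1 (HSP10) form the folding chamber of mitochondria. Transcription of the stress-inducible genes is driven by heat shock factor 1, HSF1, which binds repeats of a short unit called the heat shock element. T cells that leave rest after stimulation make large amounts of protein, and chaperone genes are known to be raised during that growth.

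Promoter sequence was looked at first because Hspa1a and Hspa1b are near copies of each other. Both lie on chromosome 17 on the minus strand of GRCm38, Hspa1a at chr17:34969190-34972156 and Hspa1b at chr17:34956436-34959238. The other 8 genes are spread over the genome: Hsp90ab1 at chr17:45567775-45573271, Hspd1 at chr1:55077835-55088243, Hspe1 at chr1:55088132-55091307, Hsph1 at chr5:149614287-149636376, Bag3 at chr7:128523616-128546981, Dnajb1 at chr8:83608193-83612653, Hspa8 at chr9:40800984-40810087 and Hsp90aa1 at chr12:110690605-110702728. The 150 bases before each start, from RefSeq's GRCm38.p6, are shown to compare the copies. They are chr17:34972157-34972306 and chr17:34959239-34959388, both read on the minus strand 5′ to 3′, and capitals mark a match to a pair of heat shock element units.
Hspa1a: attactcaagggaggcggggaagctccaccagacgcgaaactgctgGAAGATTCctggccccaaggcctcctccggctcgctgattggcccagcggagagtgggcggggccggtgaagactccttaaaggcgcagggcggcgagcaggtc
Hspa1b: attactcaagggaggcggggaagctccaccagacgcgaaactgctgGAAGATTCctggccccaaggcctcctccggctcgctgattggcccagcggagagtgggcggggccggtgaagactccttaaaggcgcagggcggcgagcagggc
The copies differed at 1 of these 150 bases, and at 4 of the 300 bases that run from 250 before to 50 after the start. Each held GAAGATTC with its first base 104 bases before the start (position -104).

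The motif searched was a pair of inverted units with a gap of 2 bases, GAANNTTC or TTCNNGAA, each of which reads the same on both strands. A longer form adds 1 more inverted unit at the same spacing, and so contains 2 overlapping matches of the short form. Windows were held for 7 of the 10 genes and not for Hspa8, Hsp90aa1 and Hsp90ab1. The short form was found in windows of 6 of these 7 genes, against 17.0% of 27025 genes (15.1% of their 32851 promoter windows of 300 bases). The long form was found in 3 of them, Hsph1, Hspd1 and Hspe1, against 0.662% of genes (0.603% of windows). Hspd1 and Hspe1 are transcribed in opposite directions on chromosome 1, and the same bases lay in a window of each. For Hspe1 and Hsph1 the 30 bases that hold the long form are shown, from RefSeq's GRCm38.p6, with matching units in capitals.
Hspe1, chr1:55088053-55088082, plus strand: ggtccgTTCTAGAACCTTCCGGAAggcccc
Hsph1, chr5:149636287-149636316, minus strand: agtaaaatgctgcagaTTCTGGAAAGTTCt
The run before Hspe1 held TTCTAGAACCTTC, first base at -89, and GAACCTTCCGGAA, first base at -84, which share bases. Hsph1 held the short TTCTCGAA at -33, outside the bases shown, and the longer TTCTGGAAAGTTC at position 37 after the start, and Bag3 held GAAGTTTC at position 43. No match was found in the windows of Dnajb1. A match is a description of these letters and says nothing of binding in these cells.

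The 10 genes spanned a wide range of abundance. Levels between genes are given as CPM (counts scaled to the size of each library) per kilobase of annotated exon, the median over 24 libraries. The exons of all transcripts of a gene were joined, giving 1474 bases for Hspe1, 7266 for Hsph1, 4301 for Hspa8 and 2642 for Hspd1. Their longest coding transcripts hold 774, 3802, 2394 and 2423 bases. Gaps between genes and their order therefore depend on the length used, and levels by transcript length are not given here. Hsp90ab1, the constitutive HSP90, was highest at 1554 CPM per kb, followed by Hspd1 at 368. Hspe1 at 184, the inducible HSP90 gene Hsp90aa1 at 163 and the constitutive HSP70 gene Hspa8 at 161 came next, and neighbours in this run of 3 overlapped in their ranges over libraries. Hsph1 followed at 60.2, Dnajb1 at 21.3 and Bag3 at 3.03, each above the next in all 24 libraries. The inducible HSP70 genes were at the bottom, Hspa1b at 0.452 and Hspa1a at 0.0833 CPM per kb, with Hspa1b above Hspa1a in all 24 libraries. As plain CPM, Hsp90ab1 ran from 4093 to 5480 over the libraries and Hspa1b from 0.226 to 3.24, on 3 to 45 raw counts.

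The counting bears on these levels. Multimapping reads were not counted for any gene, and a share of several of these transcripts is repeated elsewhere: of 50-base stretches, 66.3% in Hspa1a, 62.3% in Hspa1b, 74.8% in Hspa8, 58.5% in Hsp90aa1 and 44.8% in both Hspd1 and Hspe1 also occur in the transcripts of another annotated gene, against 4.5% in Hsp90ab1, 0.4% in Dnajb1 and 0.0% in Hsph1 and Bag3. Of 100-base stretches the shares were 56.5% in Hspa1a, 49.9% in Hspa1b, 63.4% in Hspa8, 47.5% in Hsp90aa1, 26.9% in Hspd1 and 22.4% in Hspe1. The read length is not given in the sources used here, and how far the levels of these 6 genes are understated was not tested. Hspa1a also shares 564 exon bases with Gm20481 on the opposite strand, and Hspd1 and Hspe1 share 112, and with the strand setting not given reads there cannot be told apart.

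Depth was 11.9 to 21.8 megacounts (units of 1e6 gene counts), so in each library a floor of 3 counts was 0.138 to 0.251 CPM. Pou2af1 checked the genotypes: it averaged 38.4 ± 10.9 CPM in CD4 wild type, 20.2 ± 4.28 in heterozygotes and 2.19 ± 1.11 in knockouts (SD, n = 4 each), and 27.7 ± 6.18, 15.5 ± 1.40 and 1.71 ± 0.750 in CD8, with no overlap between genotypes. All 9 T cell identity markers averaged at least 1 CPM in every group. Summed CD4 lineage markers (Cd4, Zbtb7b, Cd40lg) were 654 to 786 CPM in CD4 libraries and 4.76 to 18.2 in CD8 libraries. Summed CD8 lineage markers (Cd8a, Cd8b1, Runx3, Eomes) were 1084 to 1237 CPM in CD8 libraries and 73.6 to 114 in CD4 libraries. Summed B cell markers were 6.47 to 33.9 CPM, and summed neutrophil markers were at most 0.142 CPM, with S100a8 and Camp at 0 in all libraries. The sexes, read from Xist and Ddx3y, were unequal: each heterozygote group had 2 female libraries of 4, and every other group had 1.

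**Figure D1:**
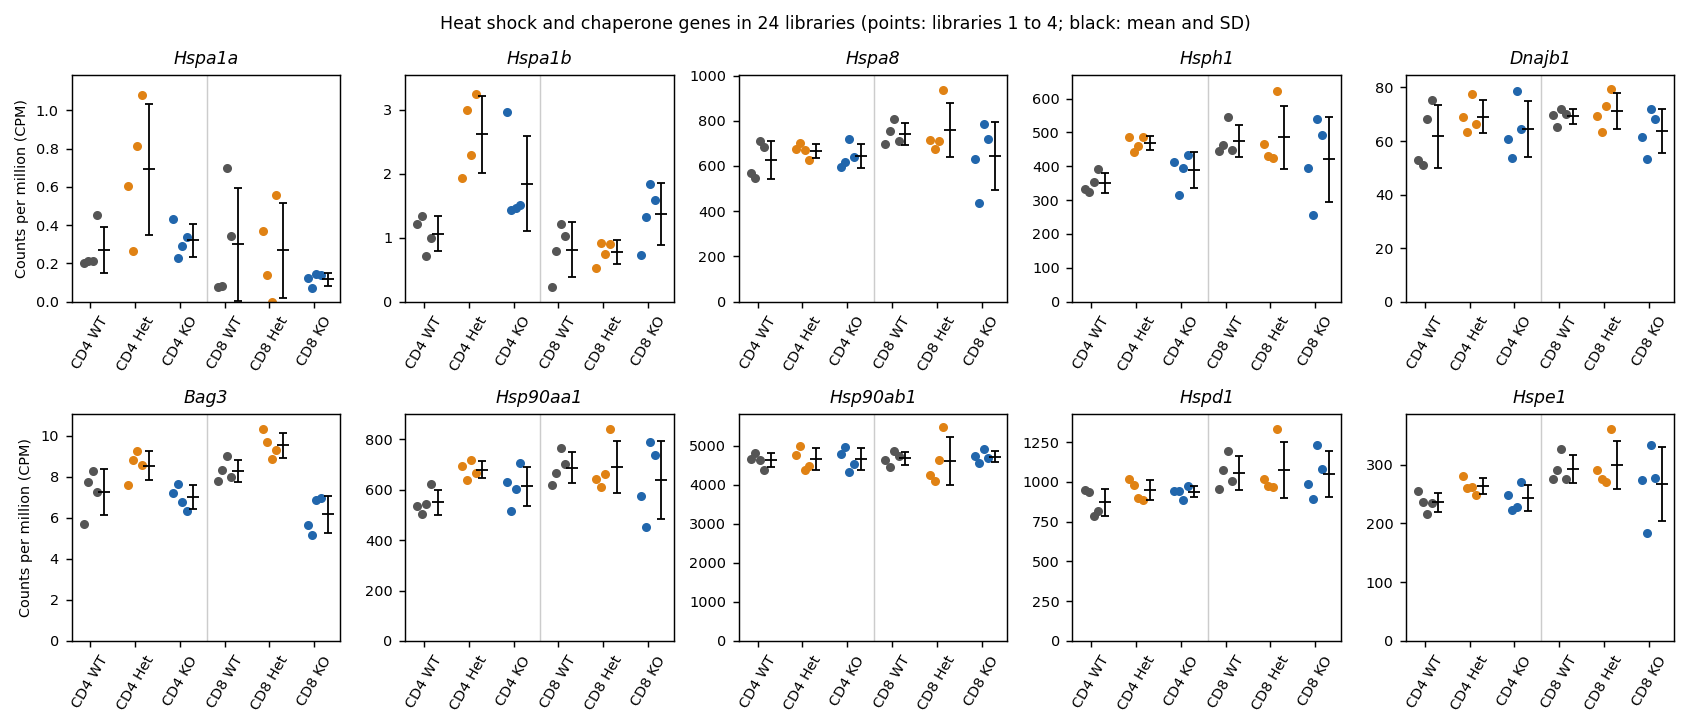
CPM (vertical axis, linear from 0) of the 10 heat shock and chaperone genes in the 6 groups (horizontal axis). Points are libraries 1 to 4 from left to right, and black marks are the mean and SD. Hspa1b in the 4 CD4 heterozygote libraries sits between 1.94 and 3.24 CPM, above all CD4 wild-type libraries, while Hsp90ab1 is close to level across groups.

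In CD4 cells, the heterozygotes held more RNA of several of these genes than wild type. This is the comparison from which the list was chosen, so its values are a description. Hspa1b was at 1.21, 1.34, 0.712 and 0.994 CPM in the wild-type libraries (18, 19, 10 and 22 counts) and at 1.94, 3.00, 2.29 and 3.24 CPM in the heterozygotes (32, 45, 31 and 39 counts). Every heterozygote library lay above every wild-type library. The log2 change was 1.28 (SE 0.30), or 2.43-fold. Hsph1, the HSP110 exchange factor, was at 334, 325, 354 and 391 CPM in wild type and at 485, 442, 459 and 486 CPM in heterozygotes, again without overlap, a log2 change of 0.41 (SE 0.09). Hsp90aa1 was at 536, 503, 542 and 621 CPM in wild type and at 695, 640, 719 and 667 in heterozygotes, a log2 change of 0.30 (SE 0.09). It also did not overlap.

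The other 6 tested genes overlapped between CD4 heterozygotes and wild type. The share of all genes without overlap between the groups compared is not given for any comparison here. Non-overlap of a gene is therefore a description with no background beside it. Their log2 changes were 0.23 (SE 0.13) for Bag3, 0.15 (SE 0.14) for Dnajb1, 0.15 (SE 0.07) for Hspe1, 0.11 (SE 0.07) for Hspd1, 0.08 (SE 0.09) for Hspa8 and 0.00 (SE 0.06) for Hsp90ab1. The median over the 9 tested genes was 0.15, against -0.019 over all genes tested. Hspa1a, too low to be tested, had 3, 3, 3 and 10 counts in wild type and 10, 4, 11 and 13 counts in heterozygotes. Of all genes, 0.0865% were called in this comparison (adjusted p under 0.05 in edgeR's quasi-likelihood test). Summed macrophage and monocyte markers were 2.12 to 2.40 CPM in the heterozygotes and 1.28 to 2.03 in wild type, summed dendritic cell markers 8 to 12.6 and 5.24 to 8.88, and summed immediate early genes 2778 to 3240 and 2535 to 2839. In each group only 1 of the 6 macrophage and monocyte markers and 1 of the 5 dendritic cell markers averaged at least 1 CPM. Lyz2 and Siglech were at 0 in all libraries of both groups. The part of these sums in the chaperone values was not tested. In bulk samples such as these, more cells that express a gene and more RNA per cell cannot be told apart.

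In CD4 knockouts the means of Hspa1b, Hsph1 and Hsp90aa1 lay between those of wild type and heterozygotes. Against wild type, 0 of the 8 tested genes other than Hspa1b were called, with 0.0708% of all genes called. Hspa1b was at 2.96, 1.44, 1.46 and 1.51 CPM in knockouts, all above the wild-type libraries, with a log2 change of 0.79 (SE 0.30), given without a test because those wild-type libraries took part in the choice of the list. That change moved to 0.46 without knockout replicate 1, the library at 2.96 CPM. Log2 changes of the other 8 ran from -0.06 (Bag3, SE 0.13) to 0.15 (Hsp90aa1, SE 0.09), with Hsph1 at 0.14 (SE 0.09), and the median of the 9 was 0.05 against -0.006 over all genes.

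Against the heterozygotes, the CD4 knockouts are again given as a description, since the heterozygote values chose the list. Of the 9 genes, 8 were below 0 in log2 change, and 0.0157% of all genes were called. Hsph1 was at 413, 314, 395 and 433 CPM in knockouts, all below the heterozygotes, a log2 change of -0.27 (SE 0.09). Hspa1b had a log2 change of -0.49 (SE 0.29), or -0.83 without knockout replicate 1, and Bag3 one of -0.29 (SE 0.13), and in both the groups overlapped. This comparison and the one with wild type share the heterozygote libraries, so a value that is high there moves both.

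In CD8 cells the heterozygotes overlapped wild type in each of the 10 genes. How many of all genes overlapped likewise is not given here. Log2 changes of the tested genes ran from -0.09 (Hspa1b, SE 0.42) to 0.20 (Bag3, SE 0.12), and 0 of 9 were called, with 0.0634% of all genes called. Hspa1b was at 0.226, 0.792, 1.21 and 1.03 CPM in CD8 wild type and at 0.520, 0.918, 0.750 and 0.908 CPM in CD8 heterozygotes. The lowest of these libraries held 3 counts of the gene. Hsph1 was at 444, 464, 544 and 448 CPM in CD8 wild type and at 467, 430, 423 and 622 CPM in heterozygotes, with a single high library. As a difference of differences, the heterozygote effect on Hspa1b was lower in CD8 than in CD4 by a log2 value of -1.38 (SE 0.53), given without its test because the CD4 side chose the list. Of all genes 0.00753% were called for that difference.

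Bag3 was the only gene of the 10 whose CD8 knockout libraries all lay below both other genotypes. The share of all genes with this pattern is not given here. Its protein releases clients from HSP70 and passes some of them to autophagy. Bag3 was at 7.78, 8.31, 8.99 and 7.98 CPM in CD8 wild type, at 10.3, 9.67, 8.85 and 9.29 CPM in heterozygotes and at 5.66, 5.15, 6.87 and 6.97 CPM in knockouts. The lowest library of the other genotypes, at 7.78 CPM, was above the highest knockout, at 6.97. The log2 change against wild type was -0.42 (SE 0.12), which did not pass (adjusted p = 0.987 in edgeR's quasi-likelihood test), and against heterozygotes it was -0.62 (SE 0.12, adjusted p = 0.410). DESeq2 called the second of these (adjusted p = 0.0181), and edgeR called it in replicates 1 and 2 alone with a log2 change of -0.88 (adjusted p = 0.0354), while no other alternative did.

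Across all tested genes 0.0634% were called in CD8 knockouts against wild type and 0.0159% in CD8 knockouts against heterozygotes, and 0 of the 9 were called in either. Against wild type 7 of the 9 lay below 0, from -0.42 to -0.01, and Hspa1b lay at 0.71 (SE 0.39, adjusted p = 0.987 in edgeR's quasi-likelihood test), or 0.41 without wild-type replicate 1. CD8 knockouts had Hspa1b at 0.723, 1.32, 1.84 and 1.59 CPM, overlapping wild type and heterozygotes. The log2 changes of Hsph1 at -0.18 (SE 0.19), Hspa8 at -0.21 (SE 0.15) and Hspe1 at -0.13 (SE 0.15) carried a wide error. In each of these 3 genes, knockout replicate 2 was the lowest of all 12 CD8 libraries, at 255 CPM for Hsph1, 437 for Hspa8 and 183 for Hspe1. For the difference of the knockout effect between CD8 and CD4, 0 of the 8 genes other than Hspa1b were called, with 0.00753% of all genes called, and the differences ran from -0.37 (Bag3, SE 0.17, adjusted p = 1 in edgeR's quasi-likelihood test) to 0.00 (Hsp90ab1, SE 0.10).

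**Figure D2:**
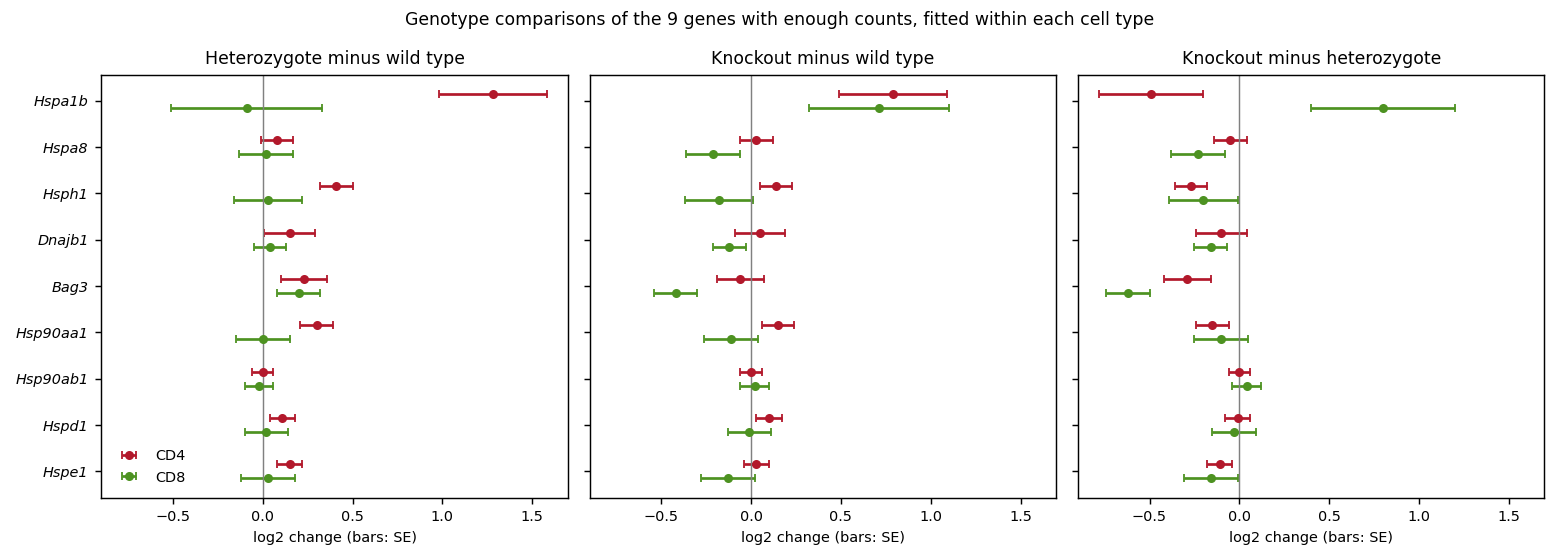
Log2 changes (horizontal axis, bars are SE) of the 9 tested genes (vertical axis) in the 3 genotype comparisons, with CD4 in red and CD8 in green. Hspa1b in CD4 heterozygotes minus wild type sits at 1.28, and Bag3 in CD8 knockouts minus heterozygotes at -0.62.

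Among comparisons without the CD4 heterozygotes, CD8 against CD4 wild type was where genes of the 10 passed the test. All 8 tested genes other than Hspa1b had a log2 change above 0, and 2 rose: Hsph1 and the mitochondrial HSP60 gene Hspd1. Over all genes 31.2% were called, and 14.7% were called higher, so a count of 2 of 8 is not far from the background. Hsph1 was at 334 to 391 CPM in CD4 and at 444 to 544 CPM in CD8 wild type, a log2 change of 0.44 (SE 0.16, adjusted p = 0.0436 in edgeR's quasi-likelihood test). Hspd1 was at 949, 936, 785 and 816 CPM in CD4 and at 953, 1075, 1197 and 1004 CPM in CD8, a log2 change of 0.28 (SE 0.10, adjusted p = 0.0460 in the same test). In both genes the groups did not overlap, though the lowest CD8 library of Hspd1 and its highest CD4 library were 953 and 949 CPM. All CD4 wild-type libraries of Hsph1 also lay below the CD4 heterozygotes, in the comparison that chose the list. Its p is therefore not independent of that choice, and the same holds for Hsp90aa1 below. The CD8 minus CD4 log2 change of Hsph1 was 0.05 (SE 0.16) in heterozygotes and 0.11 (SE 0.16) in knockouts. Summed NK cell markers were 3.99 to 4.97 CPM in CD8 and 0.214 to 1.34 in CD4 wild type, and macrophage and monocyte markers 3.10 to 3.79 and 1.28 to 2.03, and their part was not tested. Of the 5 NK cell markers, 1 averaged at least 1 CPM in CD8 and 0 did in CD4, and Ncr1 was at 0 in all CD8 wild-type libraries. Of the 6 macrophage and monocyte markers, 1 averaged at least 1 CPM in each cell type.

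Both calls lie near the threshold. Over 18 alternatives the adjusted p of Hsph1 ran from 0.00426 to 0.123 and that of Hspd1 from 0.0273 to 0.293, and each passed in 11. Hspe1, the partner of Hspd1, did not overlap either, at 216 to 255 CPM in CD4 and 275 to 326 in CD8, but did not pass (log2 change 0.31, SE 0.12, adjusted p = 0.0637 in edgeR's quasi-likelihood test), nor did Hsp90aa1 (0.32, SE 0.13, adjusted p = 0.0730). With the replicate block both were called as well, at adjusted p = 0.0452 and adjusted p = 0.0126 in edgeR's quasi-likelihood test, for 4 of 8 in all. With the CD4 and CD8 libraries of 1 genotype and number as pairs, a block added after seeing the data, 3 of 8 were called and Hspd1 was lost (adjusted p = 0.059 in edgeR's quasi-likelihood test), while Hsph1 (adjusted p = 0.00477), Hsp90aa1 (adjusted p = 0.0154) and Hspe1 (adjusted p = 0.0466) passed. Without CD4 wild-type replicate 3, CD8 wild-type replicate 2 or CD8 wild-type replicate 3, each left out in turn, 0 of 8 were called. The shares of all genes called in these alternative fits are not given here, so 4, 3 and 0 of 8 have no background beside them. The remaining genes were at 0.24 (Hspa8, SE 0.13), 0.19 (Bag3, SE 0.12), 0.16 (Dnajb1, SE 0.12), 0.02 (Hsp90ab1, SE 0.07) and -0.36 (Hspa1b, SE 0.38, or -0.06 without CD8 wild-type replicate 1), and the median of the 9 was 0.24 against -0.015 over all genes.

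Within the other genotypes, CD8 and CD4 cells gave the following values. In heterozygotes 34.9% of all genes were called between the cell types. Hspa1b, whose CD4 heterozygote values chose the list, was lower in CD8 by a log2 value of -1.74 (SE 0.36), and the other 8 ran from -0.01 (Hsp90ab1, SE 0.07) to 0.19 (Hspe1, SE 0.12). In knockouts 24.1% of all genes and 0 of the 9 were called, with log2 changes from -0.44 (Hspa1b, SE 0.34) to 0.16 (Hspd1, SE 0.10). The value of Hspa1b was -0.11 without CD4 knockout replicate 1 and -0.22 without CD8 knockout replicate 1. Without CD8 knockout replicate 2, Hspe1 was called higher in CD8 knockouts (log2 change 0.29, adjusted p = 0.0312 in edgeR's quasi-likelihood test). Hspa1a had 6, 3, 4 and 4 counts in CD4 knockouts and 2, 1, 2 and 2 counts in CD8 knockouts, which did not overlap in CPM. The exact 2-sided permutation test gave p = 0.0286, the smallest that 4 against 4 libraries allow, and adjusted p = 0.257 over the 9 comparisons of that gene.

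Other chaperone and heat shock genes, and genes of general activation and stress, were read from 12 lists, 129 genes outside the 10, in the same comparisons. Of these, 117 were tested in each cell type, and 0 were called in any of the 6 genotype comparisons. Between CD8 and CD4 wild type the lists did differ in their counts, read against 14.7% of all genes called higher and a median log2 change of -0.015. HSP90 co-chaperones, which load clients onto HSP90 or pace its cycle, had 9 of 12 higher, 0 lower and a median of 0.31. Examples are Fkbp4, a prolyl isomerase that binds HSP90, at 276 ± 24.9 CPM in CD8 and 207 ± 3.80 in CD4 (log2 change 0.42, SE 0.11, adjusted p = 0.00467 in edgeR's quasi-likelihood test), and Ahsa1, which speeds the HSP90 ATPase, at 208 ± 15.7 and 152 ± 5.29 CPM (0.45, SE 0.13, adjusted p = 0.0107). Without CD8 wild-type replicate 3 the count of higher co-chaperones was 5 of 12.

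Chaperones of the endoplasmic reticulum, where secreted and membrane proteins fold, had 10 of 15 higher and 0 lower, with a median of 0.35. Canx, a lectin chaperone, was at 1219 ± 21.7 CPM in CD8 and 944 ± 35.9 in CD4 wild type (log2 change 0.37, SE 0.08, adjusted p = 0.00119 in edgeR's quasi-likelihood test). Hsp90b1, the HSP90 of that compartment, was at 1332 ± 29.7 and 976 ± 99.8 CPM (0.45, SE 0.11, adjusted p = 0.00425). Creld2 was at 51.4 ± 4.16 and 32.7 ± 2.37 CPM (0.65, SE 0.12, adjusted p = 0.000361).

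Genes known to be induced by HSF1, other than the 10, had 6 of 16 tested higher and 1 lower, with a median of 0.26. The lower gene was Hspa4l, an HSP110 relative, at a mean of 133 CPM in CD8 and 176 in CD4 (log2 change -0.40, SE 0.10, adjusted p = 0.00351 in edgeR's quasi-likelihood test). Of the higher genes, Fkbp4, Chordc1, Ahsa1, Ptges3 and Stip1 are also among the higher HSP90 co-chaperones, and only Mrpl18 is not. The count for this list is therefore not a result separate from that of the co-chaperones. Among the heat shock factors, Hsf1 was at 37.2 ± 2.82 CPM in CD8 and 38.1 ± 1.51 in CD4 and did not pass (log2 change -0.04, SE 0.09, adjusted p = 0.790 in edgeR's quasi-likelihood test), and Hsf4 was called higher at 0.938 ± 0.136 against 0.389 ± 0.228 CPM, under 1 CPM in both.

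Other folding lists were mixed. The cytosolic chaperonin TRiC with prefoldin, which folds actin and tubulin, had 3 of 14 higher (Cct6a at 0.32, Cct3 at 0.28 and Cct7 at 0.20 in log2 change) and 0 lower. HSP40 genes had 4 of 18 higher and 2 lower, with Dnaja4 at 0.85 (SE 0.15) and Dnajb14 at -1.22 (SE 0.18). HSP70 co-chaperones had 2 of 10 higher and 1 lower, and Bag2, an HSP70 exchange factor, was at a mean of 24.6 CPM in CD8 and 12.6 in CD4 (log2 change 0.97, SE 0.17). Mitochondrial folding genes had 2 of 12 higher, Trap1 and Grpel1, and 1 lower, Grpel2. The other HSP70 genes had 0 of 6 higher and 1 lower. Lists share genes, so their counts are not separate. Hspa4l is the lower gene of the other HSP70 genes, of the HSP70 co-chaperones and of the HSF1-induced genes alike. Dnajb11 counts as higher both among HSP40 genes and among endoplasmic reticulum chaperones. Of the genes listed by symbol as small heat shock proteins, 0 of 2 tested were higher. Hspb6 was not called (log2 change -0.07, SE 0.18, adjusted p = 0.791 in edgeR's quasi-likelihood test). Hspb11 was lower, but it is in the list by its symbol alone, so its call is not read as one for that family. Lists of general activation and stress went the other way: 8 of 16 immediate early genes and 9 of 12 integrated stress response genes fell in CD8 against CD4 wild type and 0 rose, against 16.6% of all genes called lower, with medians of -0.53 and -1.04.

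**Figure D3:**
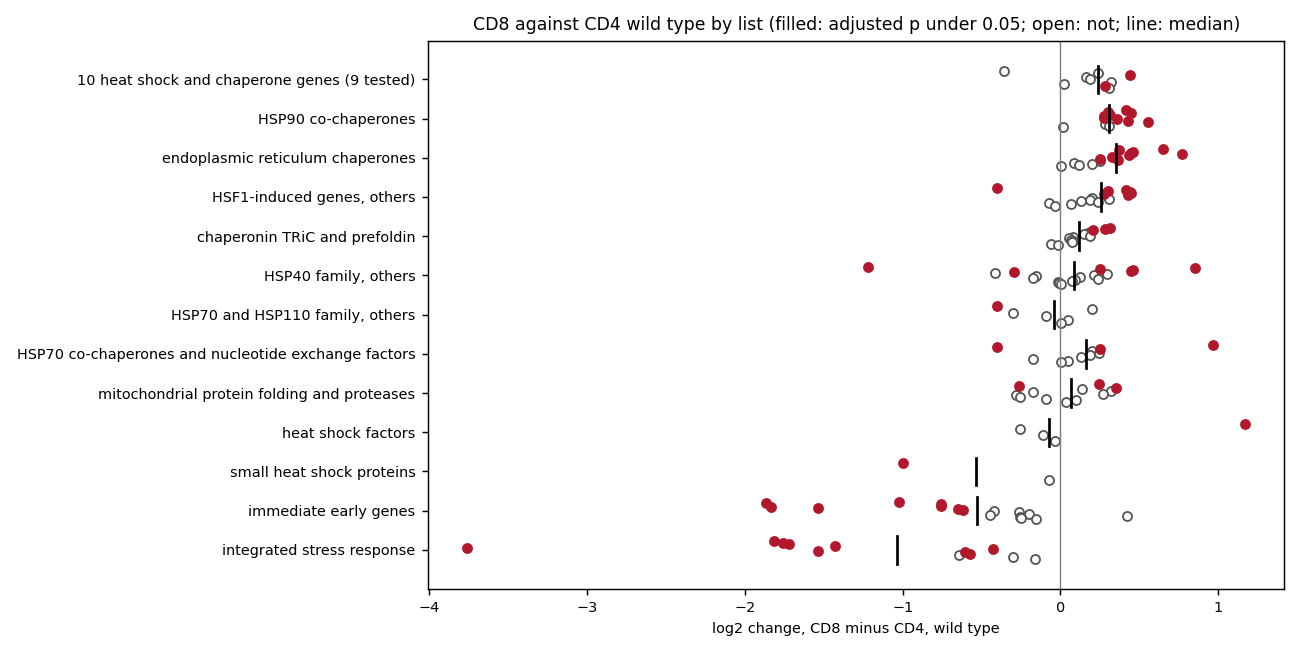
Log2 change of CD8 minus CD4 wild type (horizontal axis) for each tested gene of the 10 and of 12 related lists (vertical axis). Filled points have an adjusted p under 0.05, open points do not, and lines are medians. HSP90 co-chaperones and endoplasmic reticulum chaperones lie mostly right of 0 (medians 0.31 and 0.35), and the integrated stress response list mostly left (median -1.04).

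In CD8 heterozygotes 3 of 12 HSP90 co-chaperones and 5 of 15 endoplasmic reticulum chaperones were called higher than in CD4 heterozygotes, and in knockouts 0 of 12 and 5 of 15, against 17.1% and 11% of all genes called higher. Of immediate early genes 12 of 16 were called lower in CD8 heterozygotes and 6 of 16 in CD8 knockouts, and of integrated stress response genes 9 of 12 and 1 of 12, against 17.8% and 13% of all genes called lower. Whether these counts differ between genotypes was not tested.

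Variation between libraries of the same group was large relative to most of these differences, and it was shared between genes. In CD8 wild type, replicate 3 held the highest value of all 9 tested genes. In CD8 heterozygotes replicate 4 held the highest value of 7 of the 9, with Hsph1 at 622 CPM, Hspa8 at 934 and Hspd1 at 1336. In CD8 knockouts replicate 3 held the highest value of 8 of the 9 and replicate 2 the lowest value of 8 of the 9. In CD4 no library held more than 5 of the 9 extremes on either side. The share of all genes with their extreme in the same library is not given here, so these counts have no background beside them.

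Other values moved with the low CD8 knockout library. Its summed endoplasmic reticulum chaperones were 4976 CPM against 6839 to 7254 in the other 3 knockout libraries, and its summed HSP90 co-chaperones 2125 against 2629 to 3108. Its summed immediate early genes were 2581 CPM against 1800 to 1958, its integrated stress response genes 2512 against 1733 to 1952, its CD4 lineage markers 18.2 against 4.76 to 8.98 and its B cell markers 25.7 against 9 to 15.2. Its depth of 14.5 megacounts lay inside the range of the other libraries. The part of these in its chaperone levels was not tested.

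**Figure D4:**
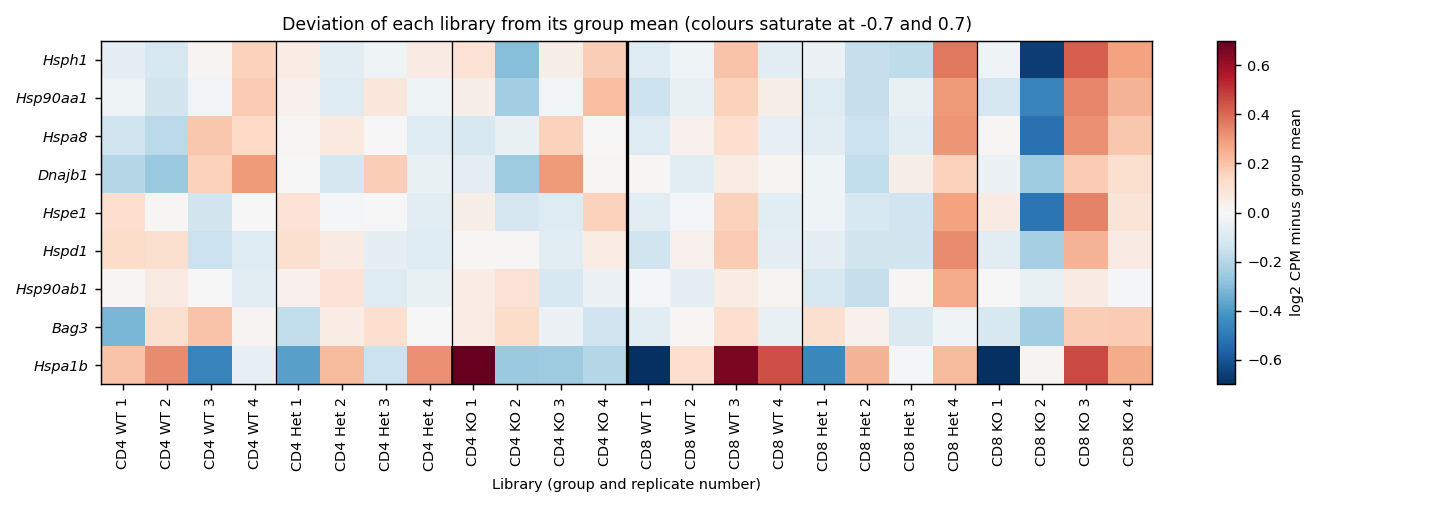
Deviation of log2 CPM from the group mean (colour, red above and blue below) for the 9 tested genes (rows) in the 24 libraries (columns, thick line between CD4 and CD8). CD8 knockout replicate 2 is blue in most rows and CD8 heterozygote replicate 4 and knockout replicate 3 are red, while Hspa1b in the bottom row follows its own order.

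The shared movement was measured as the correlation of these deviations over 24 libraries, for all 36 pairs of the 9 genes. Pearson's r ran from -0.11 to 0.95 with a median of 0.37, and 12 pairs had an adjusted permutation p under 0.05. The same values for pairs drawn from all genes are not given here, so this count has no background beside it. Libraries of the same number deviate together across cell types, so the 24 are not fully independent and these p-values are too small. The closest pair was Hsph1 with Hsp90aa1, an HSP110 and an HSP90 gene: r = 0.95 and Spearman's rho = 0.90, with permutation p = 1e-05 (the smallest the permutations give) and p = 4e-05, adjusted to 0.00018 and 0.00072. Without the 2 libraries farthest from the median of Hsph1, r was 0.91, and it was 0.91 within CD4 libraries and 0.96 within CD8 libraries.

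The mitochondrial partners Hspd1 and Hspe1 gave r = 0.85 and rho = 0.82 (permutation p = 1e-05 and p = 2e-05, adjusted to 0.00018 and 0.00072), and r was 0.78 without the 2 farthest libraries, 0.69 within CD4 and 0.89 within CD8. Dnajb1 and Hspa8, which act together on clients, gave r = 0.75 and rho = 0.74 (permutation p = 0.00023 and p = 0.00126, adjusted to 0.00276 and 0.0112), with 0.76 without the 2 farthest. High values were not limited to partners. Cytosolic Hsph1 and Hsp90aa1 gave r = 0.89 and r = 0.84 with mitochondrial Hspe1, while other pairs across compartments were low, such as Dnajb1 with Hspd1 (r = 0.08). Hspa1b paired with none of the other 8, its r running from -0.11 with Dnajb1 to 0.45 with Hspd1 (permutation p = 0.0478, adjusted p = 0.109). It held 3 to 45 counts a library, and the part of counting error in these values was not tested.

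The cell types differed in this pattern by description. Over the 12 CD8 libraries all 36 pairs had r above 0, with a median of 0.73 and a range of 0.01 to 0.99. Over the 12 CD4 libraries 18 of 36 had r above 0, with a median of -0.02 and a range of -0.81 to 0.91. In CD4, Dnajb1 ran against Hspd1 (r = -0.72) and Hsp90ab1 (r = -0.81), where in CD8 the same pairs had r = 0.78 and r = 0.73. These correlations share each library's depth and scaling, and the difference between cell types was not tested.

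**Figure D5:**
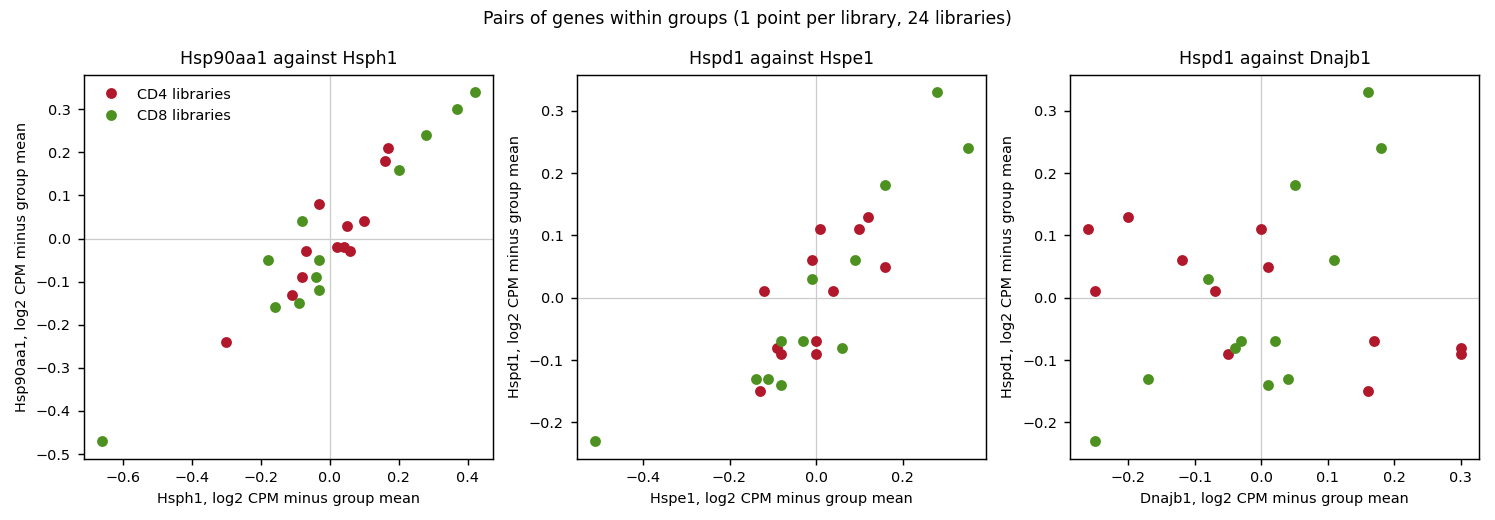
Deviations of log2 CPM from the group mean for 3 pairs of genes, 1 point per library, CD4 in red and CD8 in green. Hsp90aa1 follows Hsph1 in both cell types (r = 0.91 and 0.96), Hspd1 follows Hspe1 (r = 0.69 and 0.89), and Hspd1 against Dnajb1 slopes down in CD4 and up in CD8 (r = -0.72 and 0.78).

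Some of the within-group variation followed the replicate numbers. Dnajb1 was higher in replicates 3 and 4 than in replicates 1 and 2 in each of the 6 groups, by a mean log2 value of 0.30 in CD4 and 0.19 in CD8. All 9 genes had a mean above 0 in CD8, from 0.10 (Bag3) to 0.68 (Hspa1b). In CD4, Hspd1 lay at -0.14 and Hsp90ab1 at -0.12, below 0 in each genotype. What the numbers stand for is not given in the labels.

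The genes whose deviations were most like those of Hsp90aa1 over 24 libraries, among genes averaging at least 5 CPM, were Bms1 (r = 0.97), Rbm34 (0.96), Ppat (0.96), Prpf4 (0.95) and Psmd12 (0.95). Those most like Hspa1b were Rnf13 (r = 0.68), Pdhx (0.64), Cul5 (0.64), Eif5 (0.64) and Kcmf1 (0.63). As background, Bms1 takes part in assembly of the small ribosomal subunit, Ppat in purine synthesis, Prpf4 in splicing, Psmd12 in the proteasome and Eif5 in the start of translation. The values near 0.96 for Hsp90aa1 were as high as its r with Hsph1, and those for Hspa1b were above its r with any of the other 8 chaperone genes. These genes were picked as the highest of all genes averaging at least 5 CPM, and the chaperone genes were named beforehand. The highest of so many values will usually exceed those of 8 genes, so nothing is concluded from the difference. The spread of Hspa1b within groups was 0.508 in log2 CPM (pooled SD), larger than that of 88.0% of genes, and that of Hsp90ab1 was 0.098, larger than that of 12.7%. Hspa1b held 3 to 45 counts a library and Hsp90ab1 53933 to 97105. Counting error is larger at low counts, and its part in the spread of Hspa1b was not tested. The other 7 ranged from 0.153 to 0.251, around the median of 0.197 over all genes.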

How the data were processed

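Poly(A) RNA was sequenced from sorted, activated T cells in 24 libraries, 4 in each of 6 groups of cell type and genotype, grouped and numbered as the labels give them. The authors deposited raw whole-number counts per gene and a normalized signal, which is those counts divided by 1 factor per library (0.840 to 1.558) for 20961 genes. Per the submitters' processing notes, Trimmomatic 0.35, STAR 2.7.1a, DESeq2 1.26.0 and the build GRCm38 were used. Neither annotation release nor strand setting is given in the sources used here. Summary lines of the deposited count table (31.6% to 35.0% of a library's entries) stayed out of library sizes and tests. Multimapping reads, which are part of these lines, were 17.6% to 18.6% of all entries of a library. Of 55401 genes, 54349 matched GENCODE M21 by identifier and coordinates. The number of unused value columns was 0. Gene counts were 11.9 to 21.8 megacounts per library, and floors cover counting error only.

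Counts were fitted in R 4.3.3 with edgeR 4.0.16 (filterByExpr with a count of 10, TMM factors, quasi-likelihood F test, 2-sided, Benjamini-Hochberg adjustment over all genes tested, called under 0.05). Genotypes were compared in the 12 libraries of a cell type (12719 genes in CD4 and 12612 in CD8, 9 residual degrees of freedom), and cell types and differences of effects in all 24 (13288 genes, 18 residual degrees of freedom). Values are TMM-normalised CPM. Hspa1a, under the filter, was compared by an exact permutation test over 70 assignments. Correlations used deviations of log2 CPM (prior count 2) from group means and 100000 permutations. The fits were tested on simulated data. No pair of libraries within a group was a duplicate (chi-square per degree of freedom at least 2.62 over 36 pairs).

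The 10 genes and all lists were chosen with earlier results of these data known. The text names all 10, up to 4 genes of lowest p in a related list, and the 5 genes most correlated with Hspa1b and with Hsp90aa1 among those averaging at least 5 CPM with no Gm or Rik name.

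Same-numbered libraries were checked for shared deviations. Within CD4 every genotype pair was above 0.1 (lowest r 0.379 for knockout with wild type, 0.132 for heterozygote with wild type and 0.205 for heterozygote with knockout), as was CD4 with CD8 of 1 genotype (lowest 0.295 in wild type, 0.147 in heterozygotes and 0.354 in knockouts), so those numbers were taken to pair libraries. Within CD8 they were not (lowest 0.057, -0.226 and 0.068). Alternatives were RLE factors, no filter, DESeq2 1.42.0, limma 3.58.1 on log2 of the deposited normalized signal plus 1, a replicate block, sex and replicate set as covariates, replicates 1 and 2 or 3 and 4 alone, other library sets in the fit, and each replicate left out. The block of genotype and number pairs was chosen after seeing the data.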

Additional observations from a re-analysis of the deposited data

Results flagged for a closer look

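In each of the 10 genes and 6 groups, the gap of the highest or lowest of 4 libraries to its neighbour was set against the group's range (60 checks against Dixon's critical ratio for 4 values). Chance flags about 1 in 20 groups, and 4 values were flagged. Hspa1a in CD4 wild type reached 0.452 CPM in replicate 4, on 10 counts, with the other libraries at 3 counts. Hspa1b in CD4 knockouts reached 2.96 CPM in replicate 1, against 1.44 to 1.51 in the others. In CD8 heterozygotes replicate 4 stood apart in both Hspa8, at 934 CPM, and Hspd1, at 1336 CPM.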

How the results depend on the processing

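With 4 libraries a group and few called genes, counts near the threshold moved easily. The shares of all genes called, given above, belong to the main fit, and those of the alternatives are not given here. Whether a count below moved with the calls over all genes was not tested. Counts for comparisons that use the CD4 heterozygotes only record how the fits differ: the list was chosen there, so they test nothing about the 10 genes. For CD4 heterozygotes against wild type, 0 genes became 1 with a replicate block, 3 with sex and replicate set as covariates, 1 in replicates 1 and 2 alone and 2 with DESeq2. For CD8 knockouts against heterozygotes, 0 became 1 (Bag3) with DESeq2 and in replicates 1 and 2 alone. For CD8 against CD4 wild type, 2 became 4 with the replicate block, with sex and replicate set and with only the groups compared, and 1 with no filter and in replicates 3 and 4 alone, and leaving out each replicate gave 0 to 2. In heterozygotes 1 (Hspa1b, whose values chose the list) became 2 in replicates 1 and 2 alone, and in knockouts leaving out each replicate gave 0 to 1. The replicate block changed no call of the 9 genes in the other 9 comparisons. Of the lists, it and the block of genotype and number pairs each took the HSP90 co-chaperones called higher in CD8 against CD4 wild type from 9 to 11 and the endoplasmic reticulum chaperones from 10 to 11. The counts for CD4 and CD8 knockouts against wild type, CD4 knockouts against heterozygotes, CD8 heterozygotes against wild type and both differences of effects stayed at 0 in all alternatives run.

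Hspa1b changed sign in 4 comparisons. In CD8 heterozygotes against wild type (-0.09) it was 0.52 in replicates 1 and 2 alone, 0.09 with limma and -0.39 to 0.16 with each replicate left out. In CD8 against CD4 wild type (-0.36) it was -1.32 in replicates 1 and 2 alone and 0.36 in replicates 3 and 4 alone, and in knockouts (-0.44) -1.13 and 0.21. The difference of its knockout effect (-0.09) was 0.20 in replicates 1 and 2 alone, 0.10 with limma and -0.38 to 0.25 with each replicate left out. The cause was not tested. At 3 to 45 counts a library, depth limits Hspa1b, and Hspa1a, under the filter, has no fitted value.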
